A study of Danio rerio with 24 samples.

Results

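The 9 genes described here encode the T cell receptor beta constant region (*trbc1*), the co-receptors of T cells (*cd4-1*, *cd8a* and *cd8b*), the interleukin-7 receptor alpha chain (*il7r*), 2 proteins of antigen receptor signalling (*zap70* and *sla2*) and 2 transcription factors of T cell development (*tox* and *runx3*). They were taken as a named list, found by Ensembl identifier, and make up 9 of the 23981 genes listed in the files. All 9 were detected, in between 6 cells (*cd8b*) and 101 cells (*runx3*) of the 1008 cells analysed. They were followed cell by cell in whole kidney marrow (WKM), where adult zebrafish make their blood, to ask in which cells and in which *ikzf1* genotype each was found and which of them occurred together in a cell. The product of *ikzf1* is Ikaros, which binds DNA through zinc fingers and acts in blood cell development.

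A T cell recognises antigen through a receptor whose beta chain ends in the constant region encoded by *trbc1*. On binding, the co-receptor Cd4 or Cd8 brings a kinase to the receptor complex, and the kinase Zap70 docks to the phosphorylated tails of that complex and passes the signal on. Sla2 is an adaptor that dampens this signal in mammals. The interleukin-7 receptor keeps lymphocyte progenitors and resting T cells alive, and in mice Tox is needed for the CD4 lineage and Runx3 for the CD8 lineage, while Runx3 also acts in myeloid and innate lymphoid cells.

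All samples were untreated WKM of 3-month-old zebrafish, profiled by mCEL-Seq2, in which cells sit in plates and the 3′ ends of transcripts are counted with molecular identifiers. They formed 3 genotypes with 8 libraries of 96 barcodes each: the *ikzf1* mutant fr105, the *ikzf1* mutant IT325, and wild-type. The fr105 allele is a CRISPR/Cas9 deletion after which the truncated protein lacks most of the DNA-binding zinc fingers and the C-terminal ones, while the IT325 allele is a chemically induced nonsense mutation that removes C-terminal zinc fingers and leaves the DNA-binding ones. Both mutations are in the germ line and so affect every tissue of the fish. Single cells had been sorted by light scatter, the flow cytometry methods add a stain that excludes dead cells, and no T cell gate is named. No label names a fish. A library therefore served as 1 replicate, and the p-values measure the spread between libraries, which may be technical. All 8 libraries of 1 genotype ran on the same lane per the methods, and lane and genotype cannot be told apart.

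A barcode counted as a cell where it held 1500 transcripts or more, which left 304 fr105, 359 IT325 and 345 wild-type cells. Median depth per cell was between 3264 and 6120 in fr105 libraries, between 5364 and 8753 in IT325 libraries and between 3160 and 4502 transcripts in wild-type libraries. Because a rare transcript is found more often in a deeper cell, shares of cells with a transcript were compared after every cell had been thinned to 1500 transcripts, and the share before thinning is given beside it. The unused barcodes of a library carried between 0.709% and 7.09% of its transcripts, and over all 24 libraries between 0 and 3 transcripts of any member. Wild-type replicate 5 stood apart, since it held 13 of the 27 wild-type cells with *trbc1* among 56 of the 345 wild-type cells, and several results that rest on it are given without it too.

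The members were sparse. The median level among cells with a member was 1 transcript for 6 of the members, 1.5 for *cd8b*, and 2 for *trbc1* and *zap70*, and the highest level in any cell was 21.1 transcripts, of *sla2*. In this order, cells with the member numbered 101 for *runx3*, 71 for *trbc1*, 45 for *tox*, 39 for *sla2*, 17 for *zap70*, 16 for *il7r*, 7 each for *cd4-1* and *cd8a*, and 6 for *cd8b*. Cells with *trbc1* had a median depth of 3212 transcripts, against 5168 in cells without it, while cells with *runx3* had a median depth of 5271 transcripts, against 4955 in cells without it.

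**Figure D1:**
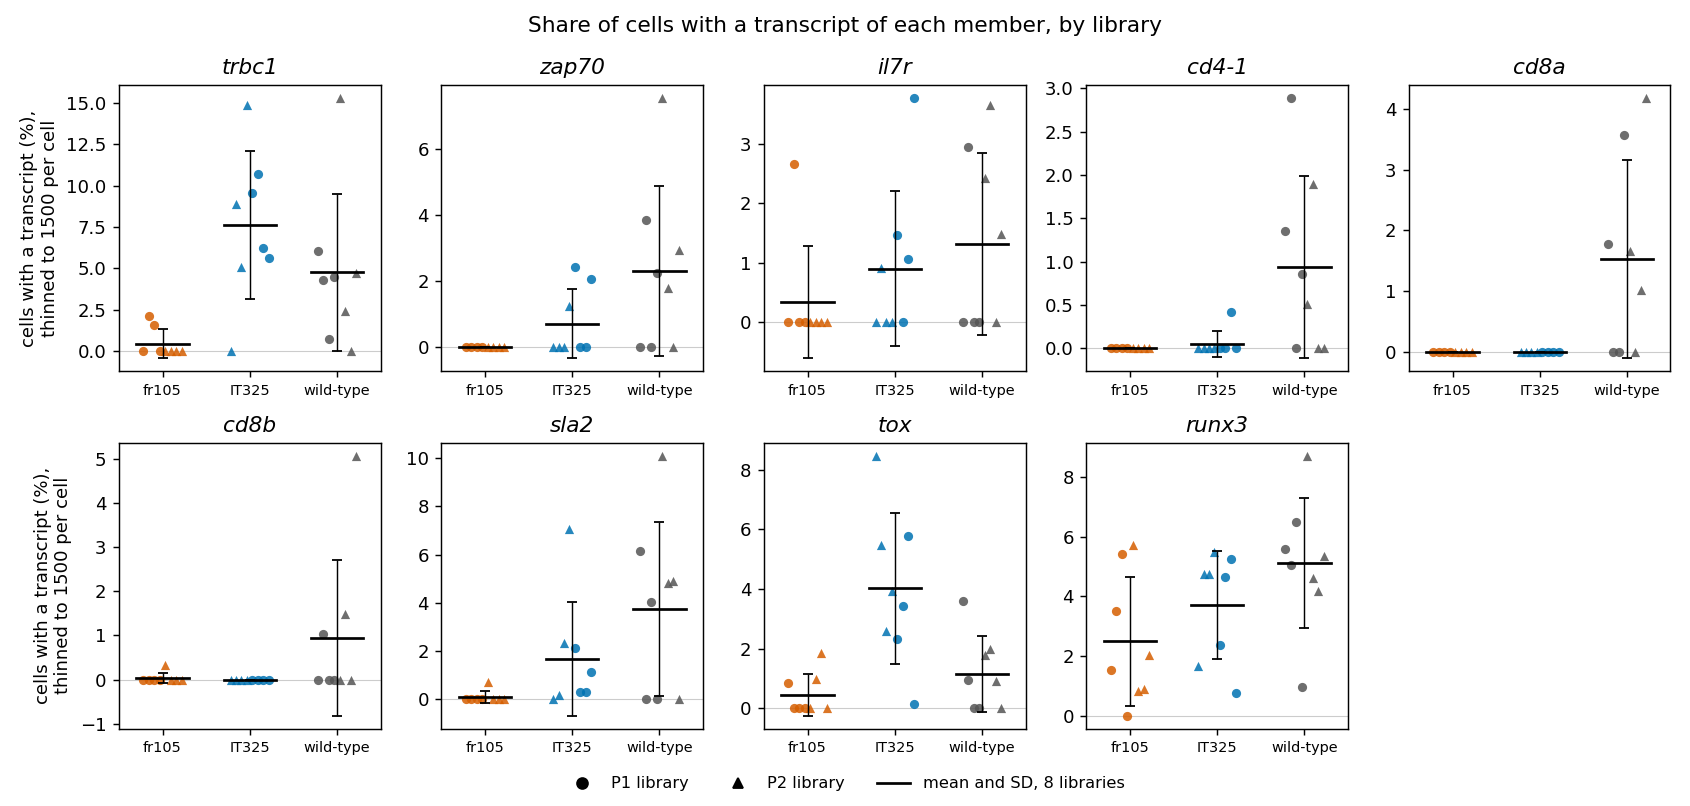
Share of cells with a transcript of each member (%, after thinning every cell to 1500 transcripts), 1 point per library with 8 libraries each of fr105, IT325 and wild-type; circles are P1 and triangles P2 libraries, lines are the mean and bars the SD. *trbc1* and *tox* were highest in IT325 (7.63% ± 4.45 and 4.02% ± 2.54), and *zap70*, *sla2* and the co-receptors in wild-type.

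The receptor gene *trbc1* was found in fewer cells of fr105 than of IT325. Before thinning, cells with *trbc1* numbered 2 of 304 in fr105, 42 of 359 in IT325 and 27 of 345 in wild-type. After thinning, the share per library was between 0% and 2.15% with a median of 0% in fr105, between 0% and 14.9% with a median of 7.57% in IT325, and between 0% and 15.3% with a median of 4.4% in wild-type. The libraries of fr105 overlapped those of IT325 only through IT325 replicate 1, in which no *trbc1* cell was found, and wild-type replicate 7 likewise had none. The mean share was 0.464% ± 0.873 in fr105 and 7.63% ± 4.45 in IT325 (SD, n = 8 each), a difference of -7.16 percentage points (two-sided exact permutation test, p = 0.0014, Benjamini-Hochberg adjusted p = 0.0344 over 14214 genes). Against the wild-type mean of 4.75% ± 4.73, fr105 differed by -4.29 points, which did not pass after adjustment (exact permutation p = 0.00497, adjusted p = 0.0859), and IT325 by 2.87 points (exact permutation p = 0.232, adjusted p = 0.523). Without wild-type replicate 5 the IT325 difference was 4.37 points (exact permutation p = 0.0348, adjusted p = 0.191). None of the 9 members passed the filter on low sums, so the test of summed transcripts was not made on them. An alternative fit without that filter covered 23644 genes, of which 3.65% were called higher and 2.9% lower in fr105 against wild-type, 2.96% and 3.72% in fr105 against IT325, and 4.31% and 2.2% in IT325 against wild-type. In it, edgeR's quasi-likelihood test called *trbc1* lower in fr105 against wild-type (adjusted p = 1.57e-06) and against IT325 (adjusted p = 7.85e-08), and not in IT325 against wild-type (adjusted p = 0.873). The call on shares between fr105 and IT325 was narrow, since leaving out fr105 replicate 1, 4, 5, 6, 7 or 8 gave a difference of -7.1 points with exact permutation adjusted p between 0.0504 and 0.0544.

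The P1 and P2 libraries, a label whose meaning is not given, showed the same order for *trbc1*. Mean thinned shares were 0.927% ± 1.1 in fr105, 8.04% ± 2.49 in IT325 and 3.9% ± 2.25 in wild-type among P1 libraries (SD, n = 4 each). Among P2 libraries they were 0% in fr105, 7.21% ± 6.29 in IT325 and 5.61% ± 6.73 in wild-type. With 4 against 4 libraries an exact test cannot go below p = 0.029, so no call within a set was possible for these shares. In whole libraries, fewer cells of a type and less RNA per cell cannot be told apart.

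The members were then placed in cell groups formed without them. Leiden clustering on other genes gave 19 clusters, of which cluster 17 held 7 of the 12 matched T cell markers and was called T cell-like, with *FOSB*, *CCR7*, *CXCR3* and *EGR3* among its 10 leading genes. Its 24 cells comprised 0 fr105, 1 IT325 and 23 wild-type cells. Cluster 16 held 9 of 17 innate lymphocyte markers, against 6 of the next list, the smallest lead the naming rule allows, and was called innate lymphocyte-like. The 1 such marker among its leading genes, *il2rb*, also counts among the T cell markers. Cluster 16 comprised 6 fr105, 20 IT325 and 4 wild-type cells. Cluster 10 also held 7 of the 12 T cell markers but none among its 25 leading genes, which included *eslec* and *mfap4.8*, and it stayed unnamed. The requirement of a marker among those 25 genes was set after the clusters and members had been seen. Without that requirement, cluster 10 would also have been called T cell-like. Cluster 10 comprised 11 fr105, 28 IT325 and 6 wild-type cells.

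**Figure D2:**
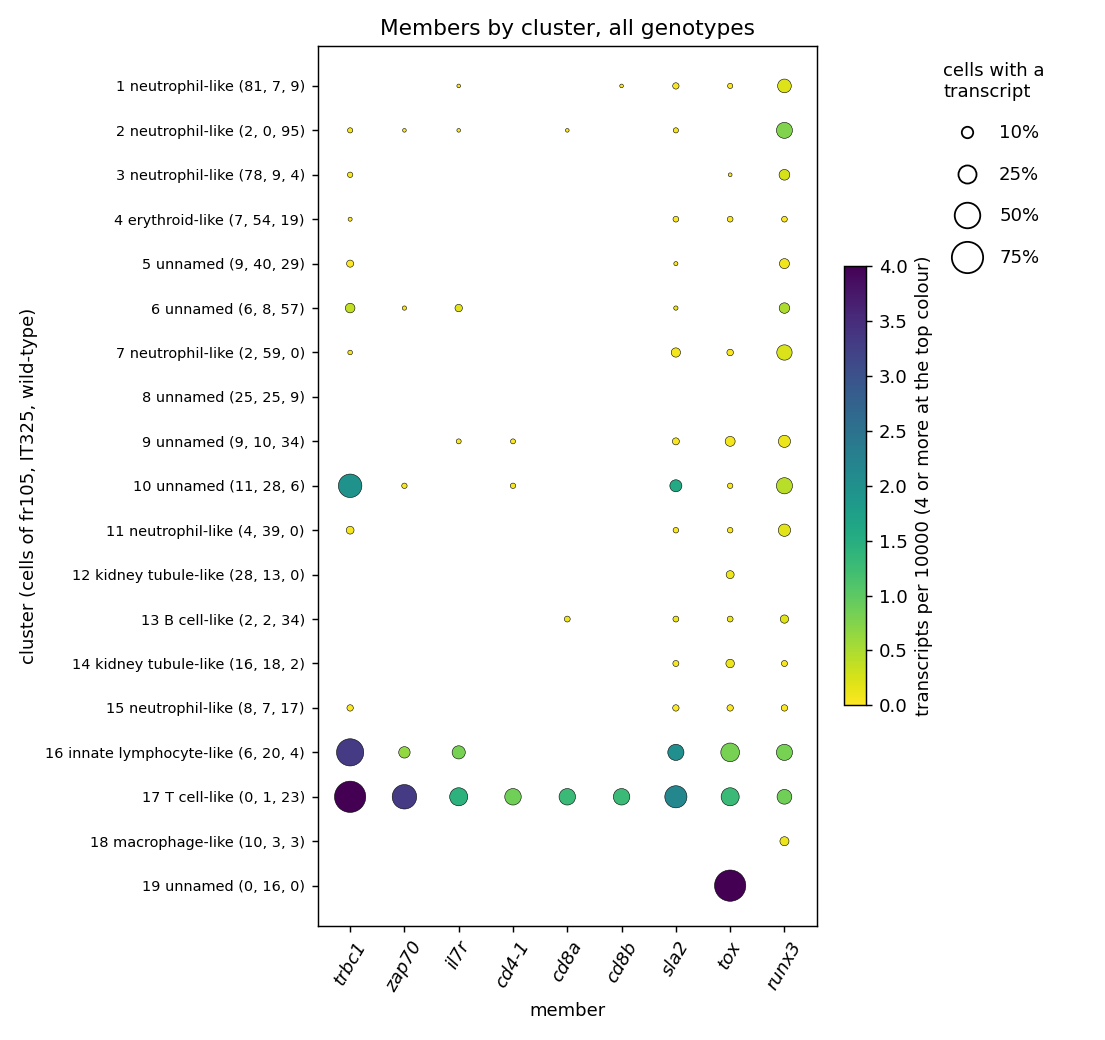
Members by cluster over all genotypes; the area of a circle is the share of the cluster's cells with a transcript before thinning (%), its colour the transcripts per 10000, and the numbers beside each cluster are its fr105, IT325 and wild-type cells. Circles for *trbc1* are large in clusters 10, 16 and 17, those of the co-receptors in cluster 17 and *tox* in cluster 19.

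Cells with *trbc1* lay mostly in different clusters in IT325 and wild-type. This was not particular to them, since neutrophil-like cells of the genotypes, given below, also lay mostly in different clusters. Of 42 IT325 cells with *trbc1*, 17 were in cluster 10, 14 in cluster 16 and 1 in cluster 17. Of 27 wild-type cells with *trbc1*, 1 was in cluster 10, 2 in cluster 16 and 17 in cluster 17, and the 2 fr105 cells lay in clusters 10 and 16. Within cluster 10, *trbc1* was found in 1 of 11 fr105 cells, 17 of 28 IT325 cells and 1 of 6 wild-type cells, and within cluster 16 in 1 of 6 fr105 cells, 14 of 20 IT325 cells and 2 of 4 wild-type cells. In cluster 17 it was found in 17 of 23 wild-type cells (73.9%, exact Clopper-Pearson 95% interval 51.6% to 89.8%). These intervals and those below cover counting error only, and cells of a library are not replicates, so no test was made on them.

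The level of *trbc1* in its cells was low in each of these clusters. Cells with *trbc1* held a mean of 3 transcripts in cluster 10 of IT325, 2.14 in cluster 16 of IT325 and 3 in cluster 17 of wild-type, with at most 9, 7 and 6 transcripts in a cell. In neutrophil-like cells, which should lack the gene, *trbc1* was found in 0 of 175 fr105 cells, which allows a share of up to 1.71% (3 counts of the total, as for each such limit in the text), in 5 of 121 IT325 cells (4.13%) and in 3 of 125 wild-type cells (2.4%). The neutrophil-like cells of the genotypes were not the same clusters, since 81 and 78 of those of fr105 were in clusters 1 and 3, 59 and 39 of those of IT325 in clusters 7 and 11, and 95 of those of wild-type in cluster 2. Median depths of the neutrophil-like cells were 5782, 7631 and 4306 transcripts in fr105, IT325 and wild-type, deeper than the 3589 of IT325 cells in cluster 10, the 2077 of IT325 cells in cluster 16 and the 2862 of wild-type cells in cluster 17. In these 3 groups of cells *trbc1* was thus found in a larger share than in neutrophil-like cells, at a lower depth.

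The co-receptor genes were found mostly in wild-type cells. *cd8a* was found in 0 of 304 fr105 cells (which allows up to 0.987%), 0 of 359 IT325 cells (up to 0.836%) and 7 of 345 wild-type cells. *cd8b* was found in 1 fr105, 0 IT325 and 5 wild-type cells, and *cd4-1* in 0 fr105, 1 IT325 and 6 wild-type cells. In wild-type libraries the share with *cd8a* was between 0% and 4.18% after thinning with a median of 1.33%, and between 0% and 6.25% before. The single fr105 cell with *cd8b* was in a neutrophil-like cluster and had 10565 transcripts, and the single IT325 cell with *cd4-1* was in cluster 10 and had 8157. In cluster 17, each co-receptor gene was found in 5 of 23 wild-type cells, against 1 of 125 (*cd8a*), 0 of 125 (*cd8b*) and 0 of 125 (*cd4-1*) neutrophil-like wild-type cells at the greater median depth of 4306 transcripts. No cell held *cd4-1* together with *cd8a* or *cd8b*, and 1 wild-type cell held both *cd8a* and *cd8b*.

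The co-receptor genes stayed under the 10 cells needed for the share test, so it was not made on them. In the alternative fit of summed transcripts without the filter, edgeR's quasi-likelihood test gave Benjamini-Hochberg adjusted p of 0.00809, 0.122 and 0.0291 for *cd8a*, *cd8b* and *cd4-1* in fr105 against wild-type. In IT325 against wild-type the same edgeR fit gave adjusted p of 0.00211, 0.00485 and 0.0943 for *cd8a*, *cd8b* and *cd4-1*. These p rest on between 5 and 7 wild-type cells for each gene, and the fitted folds of genes at or near 0 in one genotype are not given. Of the wild-type cells with a co-receptor gene, 5 of the 7 with *cd8a*, 4 of the 5 with *cd8b* and 5 of the 6 with *cd4-1* held at least 1 other member.

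The kinase gene *zap70* was found in 0 of 304 fr105 cells, 4 of 359 IT325 cells and 13 of 345 wild-type cells. Its thinned share per library was 0% in every fr105 library, between 0% and 2.43% with a median of 0% in IT325, and between 0% and 7.53% with a median of 2.02% in wild-type. Of the wild-type cells with *zap70*, 11 were in cluster 17, where they made up 11 of 23 cells (47.8%, 95% interval 26.8% to 69.4%), and 6 were in wild-type replicate 5. In neutrophil-like cells it was found in 0 of 175 fr105, 0 of 121 IT325 and 1 of 125 wild-type cells. Differences of -2.29 points for fr105 against wild-type (exact permutation p = 0.0256, adjusted p = 0.196) and of -1.58 points for IT325 against wild-type (exact permutation p = 0.126, adjusted p = 0.38) did not pass. In the alternative edgeR fit without the filter on low sums, the adjusted p for *zap70* was 0.000168 in fr105 against wild-type, 0.103 in fr105 against IT325 and 0.066 in IT325 against wild-type, and it rests on 17 cells in all.

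The adaptor gene *sla2* was found in 2 of 304 fr105 cells, 13 of 359 IT325 cells and 24 of 345 wild-type cells. Its thinned share per library was between 0% and 0.735% with a median of 0% in fr105, between 0% and 7.06% with a median of 0.715% in IT325, and between 0% and 10.1% with a median of 4.44% in wild-type. The difference of -3.67 points between fr105 and wild-type did not pass (exact permutation p = 0.0256, adjusted p = 0.196), nor did that of -2.08 points between IT325 and wild-type (exact permutation p = 0.189, adjusted p = 0.474). In the alternative edgeR fit without the filter on low sums, the adjusted p for *sla2* was 9.13e-11 in fr105 against wild-type, 0.0238 in fr105 against IT325 and 6.01e-05 in IT325 against wild-type. The sums weight a cell by its level, and the highest cell held 21.1 *sla2* transcripts. Of 78 wild-type *sla2* transcripts, replicate 7 held 29 in 3 cells, replicate 5 held 21 in 11 and replicate 1 held 20 in 4. In wild-type, *sla2* was found in 9 of 23 cells of cluster 17 and in 5 of 6 cells of cluster 10, where its level was 17.3 transcripts per 10000, against 2.22 in cluster 17. In cluster 10 of the mutants it was found in 0 of 11 fr105 and 0 of 28 IT325 cells.

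The cytokine receptor gene *il7r* was found in 2 fr105, 5 IT325 and 9 wild-type cells. Its thinned share per library was between 0% and 2.67% with a median of 0% in fr105, between 0% and 3.78% with a median of 0.45% in IT325, and between 0% and 3.66% with a median of 0.74% in wild-type. The 3 ranges overlapped, and none of the 3 comparisons passed (exact permutation adjusted p between 0.52 and 0.799, and between 0.238 and 0.559 in the alternative edgeR fit). Cluster 17 held 6 of the 9 wild-type cells, and cluster 16 held 1 of the 2 fr105 and 3 of the 5 IT325 cells with *il7r*.

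The transcription factor gene *tox* was found in 6 of 304 fr105 cells, 30 of 359 IT325 cells and 9 of 345 wild-type cells. Its thinned share per library was between 0% and 1.87% with a median of 0% in fr105, between 0.164% and 8.47% with a median of 3.68% in IT325, and between 0% and 3.61% with a median of 0.93% in wild-type. It was found in all 8 IT325 libraries, and 5 of the 8 fr105 libraries lay below every IT325 library. Before thinning, the share was between 0% and 6.06% in fr105, 2.38% and 23.8% in IT325, and 0% and 6.25% in wild-type. IT325 replicate 1, the library with the highest median depth (8753 transcripts), held 10 of the 30 IT325 cells with *tox*. The share of fr105 differed from that of IT325 by -3.56 points (exact permutation p = 0.00109, adjusted p = 0.0316), a narrow call whose adjusted p was between 0.058 and 0.0632 without fr105 replicate 2, 3, 4, 5 or 8. Differences of 2.86 points for IT325 against wild-type (exact permutation p = 0.0112, adjusted p = 0.0935, and 0.0304 without IT325 replicate 12) and of -0.696 points for fr105 against wild-type (exact permutation p = 0.208, adjusted p = 0.547) did not pass. In the alternative edgeR fit without the filter the adjusted p for *tox* was 0.588 in fr105 against wild-type, 0.00735 in fr105 against IT325 and 0.0883 in IT325 against wild-type. Within P1 libraries the mean shares were 0.217% ± 0.434 in fr105, 2.92% ± 2.33 in IT325 and 1.14% ± 1.71 in wild-type, and within P2 libraries 0.711% ± 0.897 in fr105, 5.12% ± 2.53 in IT325 and 1.18% ± 0.919 in wild-type (SD, n = 4 each).

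Many IT325 cells with *tox* belonged to a group in which no *trbc1* transcript was found. Cluster 19, whose 16 cells were all from IT325 and came from all 8 libraries, was led by *jac7* and *lad1* and stayed unnamed. It held 12 of the 30 IT325 cells with *tox*, at 4.1 transcripts per 10000, and 0 of its 16 cells held *trbc1* (which allows up to 18.8%). The 18 others were 18 of 343 IT325 cells (5.25%), including 4 of 20 cells of cluster 16. In wild-type, 6 of the 9 cells with *tox* were in cluster 17, and in fr105, 3 of the 6 were in cluster 16. In erythroid-like cells *tox* was found in 0 of 7 fr105, 2 of 54 IT325 and 0 of 19 wild-type cells.

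*runx3* was the most widely spread member. It was found in 23 of the 24 libraries, in 26 of 304 fr105 cells, 38 of 359 IT325 cells and 37 of 345 wild-type cells. Its thinned share per library was between 0% and 5.72% with a median of 1.77% in fr105, between 0.762% and 5.49% with a median of 4.71% in IT325, and between 0.966% and 8.73% with a median of 5.2% in wild-type. The libraries overlapped in all 3 comparisons, and none passed (exact permutation adjusted p = 0.227 for fr105 against wild-type, 0.481 for IT325 against wild-type and 0.581 for fr105 against IT325). Before thinning, neutrophil-like cells held *runx3* in 21 of 175 fr105, 17 of 121 IT325 and 20 of 125 wild-type cells. Cluster 17, at a lower median depth, held it in 3 of 23 wild-type cells. After thinning by 1 random draw, the shares were 1.14%, 3.31% and 5.6% in neutrophil-like cells of fr105, IT325 and wild-type. In wild-type cells of cluster 17 the thinned share was 13%, and in IT325 cells of cluster 16 it was 15%. Erythroid-like cells, which are cluster 4 alone, held *runx3* before thinning at a greater depth in 0 of 7 fr105, 1 of 54 IT325 and 1 of 19 wild-type cells. Cluster 5, which held all 13 erythroid markers but stayed unnamed, had *runx3* in 0 of 9 fr105, 5 of 40 IT325 and 1 of 29 wild-type cells, at a median depth of 12267 transcripts.

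In the test of shares, 6 members were found in at least 10 cells and were tested. In fr105 against wild-type none of the 6 was called by the exact permutation test, where 1.79% of the 14214 genes tested were called higher and 1.82% lower, and 4 of them (*trbc1*, *zap70*, *sla2* and *runx3*) had an unadjusted p under 0.05. In fr105 against IT325, *trbc1* and *tox* were called lower and none higher, against 2.41% of all genes called lower and 2.57% called higher. In IT325 against wild-type none of the 6 was called, against 4.16% of all genes called higher and 3.79% called lower, and *tox* was the 1 member with an unadjusted p under 0.05. For these 3 comparisons the share of all genes with an unadjusted p under 0.05 is not given. Unadjusted counts of members and of listed genes, here and below, therefore cannot be set against it. The 3 comparisons share libraries in pairs, so they are not independent of each other.

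Members occurred together in a cell mainly in IT325 and wild-type. At least 1 member was found in 34 of 304 fr105 cells, 102 of 359 IT325 cells and 82 of 345 wild-type cells, and at least 2 in 3, 25 and 28 cells of fr105, IT325 and wild-type. At least 3 members were found in 2 fr105 cells (0.658%, 95% interval 0.0798% to 2.36%), 4 IT325 cells (1.11%, 0.304% to 2.83%) and 17 wild-type cells (4.93%, 2.9% to 7.77%). After thinning, in 1 random draw of transcripts per cell, these numbers were 1, 2 and 9 in fr105, IT325 and wild-type, and another draw could change them. Of the 17 wild-type cells, 15 were in cluster 17 and 6 came from replicate 5, and without that replicate 11 of 289 wild-type cells (3.81%) held at least 3 members. The cells came from 2 of the 8 fr105 libraries, 3 of the 8 IT325 libraries and 5 of the 8 wild-type libraries.

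The members in these cells show the composition directly. The wild-type cell with the most members, 6, held *trbc1*, *zap70*, *il7r*, *cd8a*, *cd8b* and *runx3* (replicate 8), and the next, with 5, held *trbc1*, *il7r*, *cd8a*, *sla2* and *runx3* (replicate 5). Wild-type cells of replicates 1 and 5 held *trbc1*, *cd4-1*, *sla2* and *tox*. Among IT325 cells, the 1 with the most members held *trbc1*, *zap70*, *il7r*, *sla2* and *tox* at 3212 transcripts and lay in cluster 16, and all 4 held *trbc1*. The 2 fr105 cells held *trbc1*, *il7r* and *runx3*, in cluster 16, and *cd8b*, *sla2* and *runx3*, in cluster 1.

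**Figure D3:**
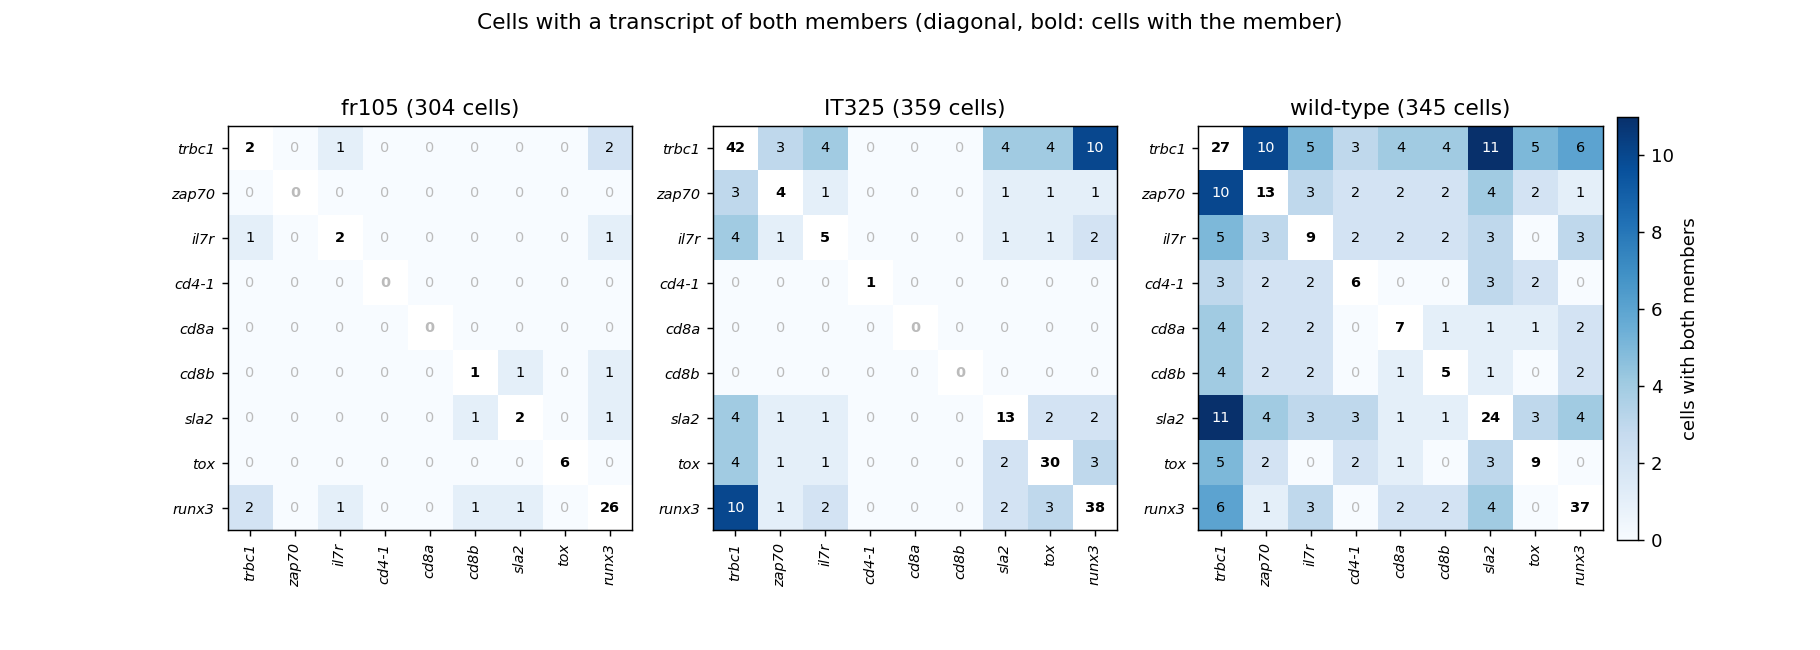
Number of cells with a transcript of both members of each pair in fr105, IT325 and wild-type (left to right), with the number of cells with each member on the diagonal in bold. The *trbc1* row holds counts up to 11 in wild-type (with *sla2*) and up to 10 in IT325 (with *runx3*), and the largest fr105 count is 2, for *trbc1* and *runx3*.

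Pairs were counted over all cells of a genotype and described by phi, a correlation of presence and absence that ranges between -1 and 1, over cells that share libraries and depth. *trbc1* and *zap70* were found together in 0 fr105 cells, 3 of 359 IT325 cells (phi 0.209) and 10 of 345 wild-type cells (phi 0.509). *trbc1* and *sla2* were found together in 0 fr105, 4 IT325 (phi 0.115) and 11 wild-type cells (phi 0.387). Without wild-type replicate 5, wild-type cells with *trbc1* and *zap70* numbered 4 and those with *trbc1* and *sla2* 5, and phi was not computed. *trbc1* and *runx3* were found together in 2 fr105 cells (phi 0.266), 10 IT325 cells (phi 0.156) and 6 wild-type cells (phi 0.108).

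Cells with *trbc1* differed in what else they held. In IT325, *zap70* was found in 3 of 42 cells with *trbc1*, and in wild-type in 10 of 27 (4 of 14 without replicate 5). Co-receptor genes were found in 0 of 42 IT325 cells with *trbc1* (which allows up to 7.14%) and in 10 of 27 wild-type cells (37%, 19.4% to 57.6%). Counting *zap70* or a co-receptor gene, the numbers were 0 of 2 in fr105, 3 of 42 in IT325 (7.14%, 1.5% to 19.5%) and 17 of 27 in wild-type (63%, 42.4% to 80.6%), at median depths of 4439, 3218 and 3095 transcripts. The wild-type share was 9 of 14 cells (64.3%, 35.1% to 87.2%) without replicate 5. After thinning by the same random draw the numbers were 1 of 31 in IT325 and 11 of 17 in wild-type. By library, at least 1 such cell was found in 2 of the 7 IT325 libraries and 6 of the 7 wild-type libraries that held *trbc1* cells.

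*trbc1* was the only member found in 23 of the 42 IT325 cells (54.8%, 38.7% to 70.2%) and in 4 of the 27 wild-type cells (14.8%, 4.19% to 33.7%) with it. *sla2* was found in 4 of the IT325 and 11 of the wild-type cells with *trbc1* (5 of 14 wild-type cells without replicate 5). *runx3* was found in 10 of 42 IT325 cells with *trbc1* (23.8%, 12.1% to 39.5%) and 6 of 27 wild-type cells (22.2%, 8.62% to 42.3%). Without replicate 5 it was found in 3 of 14 wild-type cells with *trbc1*. Among cells without *trbc1*, *runx3* was found in 28 of 317 IT325 (8.83%) and 31 of 318 wild-type cells (9.75%). *tox* was found in 4 of 42 and 5 of 27, and *il7r* in 4 of 42 and 5 of 27 of these IT325 and wild-type cells.

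**Figure D4:**
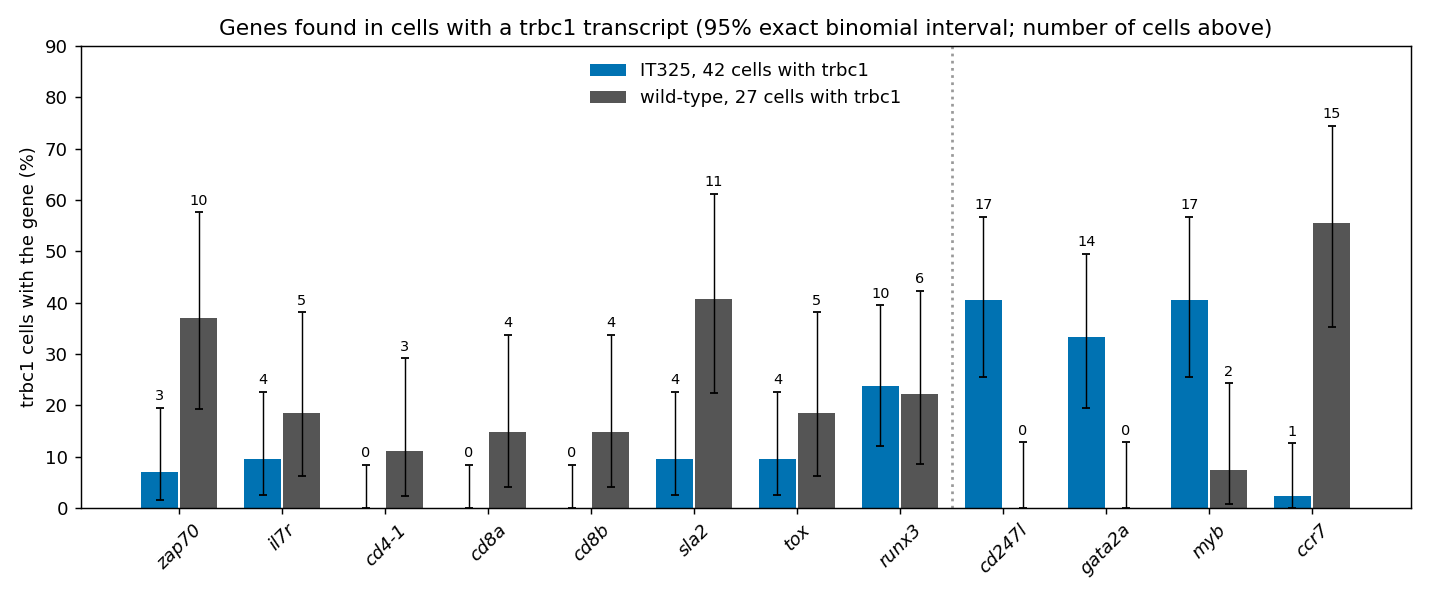
Share of cells with *trbc1* that also held each other member (left of the dotted line) or 1 of 4 other genes (right), in IT325 (42 cells) and wild-type (27 cells); bars are percent of cells, error bars exact 95% binomial intervals and the number above each bar the number of cells. *zap70*, *sla2* and the co-receptors are higher in wild-type, *cd247l*, *gata2a* and *myb* in IT325, and *ccr7* in wild-type.

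Some genes outside the list were also counted in these cells. *cd247l*, named after the zeta chain of the receptor complex, was found in 17 of 42 IT325 cells with *trbc1* (40.5%, 25.6% to 56.7%) and in 0 of 27 wild-type cells with it (which allows up to 11.1%). The 17 cells came from 7 IT325 libraries, with 10 in cluster 10 and 6 in cluster 16. *gata2a*, a transcription factor gene of blood progenitors, was found in 14 of 42 IT325 cells with *trbc1* (33.3%), all 14 in cluster 10. Among the 317 IT325 cells without *trbc1*, *gata2a* was found in 13 (4.1%). In wild-type, *gata2a* was found in 0 of the 27 cells with *trbc1* and 3 of the 318 without it. Within cluster 10 it was found in 14 of 17 IT325 cells with *trbc1* and in 8 of 11 without it, and in 8 of 11 fr105 cells. *myb*, another progenitor gene, was found in 17 of the 42 IT325 cells with *trbc1* (40.5%) and 109 of the 317 without it (34.4%), and in 2 of the 27 wild-type cells with *trbc1* and 80 of the 318 without it. Summed over 9 matched progenitor markers, the median level in IT325 and in wild-type was not higher in cells with *trbc1* than without it. *ccr7* (listed as *CCR7*), a chemokine receptor gene of circulating T cells, was found in 1 of the IT325 and 15 of the wild-type cells. *cd247l*, *gata2a*, *myb* and *ccr7* could have taken part in forming the clusters, and the choice of the 4 genes was made with results known.

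Markers of other cells were also present in cells with *trbc1*. The neutrophil gene *mpx* was found in 25 of 42 IT325 cells with *trbc1* and 235 of 317 without it, and in 11 of 27 wild-type cells with *trbc1* and 216 of 318 without it. *lyz* was found in 41 of 42 and 27 of 27, and the haemoglobin gene *hbaa1* in 42 of 42 and 26 of 27 of the IT325 and wild-type cells with *trbc1*. Cells without *trbc1* held them about as often, *lyz* in 98.7% and 96.5% and *hbaa1* in 100% and 92.5% of IT325 and wild-type cells. Summed over 15 neutrophil markers, cells with *trbc1* had between 13.2 and 896 transcripts per 10000 in IT325, with a median of 54.2 against 49.7 in cells without it, and a median of 36.9 against 161 in wild-type. Of the 14 B cell markers 11 were found in at least 1 of the IT325 and 10 in at least 1 of the wild-type cells with *trbc1*, while *cd79a* was in none of them. Without *trbc1*, *cd79a* was in 1 of 317 IT325 and 23 of 318 wild-type cells. Summed over the B cell list, the median was 27.6 transcripts per 10000 in IT325 cells with *trbc1* against 4.3 in those without it, and 15.5 against 5.74 in wild-type. Summed over the 12 T cell markers, it was 9.4 against 0 in IT325 and 15.5 against 5.39 in wild-type. Over the 9 progenitor markers, the median was 6.26 against 6.88 in IT325 and 0 against 10.7 in wild-type. The part of free or foreign RNA in the co-detection of members was not tested.

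The genes whose detection over the 1008 cells was most like that of *trbc1*, by phi among 14207 genes found in at least 10 cells, were *ccl34b.4* (phi 0.427), an unnamed gene (ENSDARG00000075807, 0.416), *cd247l* (0.355), *si:dkey-183p4.10* (0.352) and another unnamed gene (ENSDARG00000009890, 0.352). *ccl34b.4*, a chemokine gene, was found with *trbc1* in 1 fr105, 14 IT325 and 15 wild-type cells, and *si:dkey-183p4.10* in 0, 7 and 17 cells of fr105, IT325 and wild-type. *zap70* was most like *CCR7* (0.484), *gzma* (0.479), a granzyme gene, and *DEF6* (0.408), and *il7r* most like ENSDARG00000075807 (0.311), *egr2a* (0.267) and *CCR7* (0.263). *sla2* was most like an unnamed gene (ENSDARG00000036572, 0.31), *gzma* (0.267) and *ccl34b.4* (0.257). *CCR7*, *ccl34b.4*, ENSDARG00000075807 and ENSDARG00000036572 were also among the 10 leading genes of cluster 17, and *ccl34b.4* among those of cluster 16 too.

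The genes most like *tox* and *runx3* were others. *tox* was most like *si:dkey-30c15.12* (0.383), *si:dkey-40i22.5* (0.37) and *MYL9* (0.351), a myosin light chain gene, and all of the 12, 11 and 14 cells shared with them were from IT325. These 3 genes were themselves found almost only there, in 20, 18 and 27 IT325 cells. In fr105 they were found in 0, 0 and 1 cells and in wild-type in 0, 0 and 3 cells. *runx3* had no close partner, its highest values being 0.175 (ENSDARG00000058991), 0.157 (ENSDARG00000076562) and 0.156 (*id3*).

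Other genes of the receptor pathway were tested with the members. Of 31 other T cell receptor signalling genes listed, 20 were matched to the files, 8 were tested by summed transcripts and 18 by shares, and *lck*, *cd3e*, *cd247* and *lat* were not analysed here. The sums were tested for 3296 genes, of which 11.6% rose and 12.3% fell in fr105 against wild-type, 11.5% rose and 10.3% fell in IT325 against wild-type, and 15.3% rose and 13.4% fell in fr105 against IT325. In fr105 against wild-type 1 of the 8 rose and 0 fell, with a median log2 fold change of 0.03 against 0.02 over all genes. By the exact permutation test 0 of 18 shares passed. An unadjusted p under 0.05 was met by 6 of them, with no share of all genes at that threshold to set beside it. The gene that rose was *plcg1*, a phospholipase C of receptor signalling, with a log2 fold change of 0.81 ± 0.294 (edgeR, adjusted p = 0.043). In IT325 against wild-type 0 of the 8 rose and 2 fell, with a median log2 fold change of -0.06 against 0.00276 over all genes, and 2 of 18 shares were lower. The adaptor gene *grap2a* fell by 1.04 on the log2 scale (SE 0.262, edgeR, adjusted p = 0.00447), and *ptprc*, which encodes Cd45, by 0.54 (SE 0.173, edgeR, adjusted p = 0.0257). They were also the 2 with a lower share, *grap2a* at 3.87% ± 2.12 in IT325 and 8.45% ± 2.32 in wild-type, and *ptprc* at 22.9% ± 4.89 in IT325 and 34.9% ± 5.08 in wild-type (mean thinned share ± SD, exact permutation adjusted p = 0.0205 for both).

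In fr105 against IT325, *ptprc* (log2 fold change 0.52 ± 0.173, edgeR, adjusted p = 0.0245) and *grap2a* (0.70 ± 0.268, edgeR, adjusted p = 0.0491) rose. Their shares did not pass there (exact permutation adjusted p = 0.187 for *ptprc* and 0.296 for *grap2a*). The share with *cd28l*, named after a co-stimulatory receptor, was 0% in fr105 and 1.31% ± 0.851 in IT325 (mean thinned share ± SD, exact permutation p = 0.000155, adjusted p = 0.00944). Both *ptprc* and *grap2a* are also used by cells other than T cells.

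Genes listed around the common gamma chain receptors, to which *il7r* belongs, gave no call. The list also held *jak1*, *jak3*, *stat5a*, *stat5b*, *il7* and *crlf2*, which encode no receptor that uses this chain. Of 12 listed, 9 were matched, 3 were tested by summed transcripts and 7 by shares, and 0 passed either test in any of the 3 comparisons (edgeR or exact permutation, adjusted p). At an unadjusted p under 0.05 these were 0 of 3 sums and 1 of 7 shares in fr105 against wild-type, 1 of 3 and 1 of 7 in IT325 against wild-type, and 0 of 3 and 0 of 7 in fr105 against IT325. Of 21 other T lineage transcription factors, 15 were matched, 3 tested by sums and 10 by shares. Among them *ikzf1* itself rose in fr105 by 1.14 ± 0.205 (log2, edgeR, adjusted p = 0.000147) and in IT325 by 1.66 ± 0.197 (edgeR, adjusted p = 1.86e-07) relative to wild-type. Its shares passed in both (exact permutation adjusted p = 0.0233 in fr105 and 0.0182 in IT325). It was lower in fr105 than in IT325 by a log2 fold change of -0.515 ± 0.181 (edgeR, adjusted p = 0.0321), while its share did not pass there (exact permutation adjusted p = 0.67). Where the counted 3′ ends lie relative to the mutations was not examined, so these values do not check the mutations. In cells with *trbc1*, *ikzf1* was found in 1 of 2 fr105, 18 of 42 IT325 and 7 of 27 wild-type cells.

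The share with *ets1*, a transcription factor gene of lymphocytes, was lower in fr105, at 0.0738% ± 0.209, than in wild-type, at 1.68% ± 1.36 (exact permutation p = 0.0014, adjusted p = 0.0421). That of *zbtb7b*, which in mice directs T cells to the CD4 lineage, was higher in fr105, at 5.23% ± 1.85, than in IT325, at 2.61% ± 1.1 (exact permutation p = 0.00233, adjusted p = 0.0481). Which cells held *zbtb7b* was not examined, and *trbc1* was found in only 2 of 304 fr105 cells. Among 7 matched genes of immature blood cells, *kita*, a stem cell factor receptor gene, rose in fr105 by 1.58 ± 0.379 (log2, edgeR, adjusted p = 0.00283) and in IT325 by 1.79 ± 0.362 (edgeR, adjusted p = 0.000508) relative to wild-type. The share with *kita* passed in IT325 against wild-type (exact permutation adjusted p = 0.0434) and not in fr105 against wild-type (adjusted p = 0.295). *tal1*, a progenitor and erythroid factor gene, was lower in fr105 than in IT325 by a log2 fold change of -1.98 ± 0.503 (edgeR, adjusted p = 0.00389). Its share did not pass in that comparison (exact permutation adjusted p = 0.0535). The share with *tal1* was higher in IT325, at 9.94% ± 4.79, than in wild-type, at 3.42% ± 2.29 (exact permutation adjusted p = 0.0407). Its sums did not pass between IT325 and wild-type (edgeR, adjusted p = 0.0647).

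The myeloid factor gene *spi1b* had a share of 32.1% ± 5.25 in IT325 and 47% ± 2.7 in wild-type (exact permutation p = 0.000155, adjusted p = 0.00703), while its summed transcripts gave a log2 fold change of -0.11 ± 0.147 (edgeR, adjusted p = 0.639). In fr105 it rose by 0.60 ± 0.148 relative to wild-type (log2, edgeR, adjusted p = 0.00377) and by 0.705 ± 0.147 relative to IT325 (edgeR, adjusted p = 0.000786). The share in fr105 passed against IT325 (exact permutation adjusted p = 0.00944) and not against wild-type (adjusted p = 0.467).

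Lists of other cell types moved between genotypes in the same libraries. Of 11 erythroid markers tested by sums, 0 rose and 1 fell in fr105 against wild-type, 4 rose and 0 fell in IT325 against wild-type, and 0 rose and 11 fell in fr105 against IT325. Of 15 neutrophil markers, 7 rose and 1 fell in fr105 against wild-type, 5 rose and 5 fell in IT325 against wild-type, and 7 rose and 2 fell in fr105 against IT325. The part of cell composition in the members' differences over all cells was not tested.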

How the data were processed

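The authors aligned mCEL-Seq2 read pairs with BWA (version 0.6.2-r126, after bcl2fastq 2.17.1.14 per the submitters' processing notes) to zebrafish gene models of an earlier Ensembl release with improved 3′ ends, discarded reads with more than 1 locus, and counted molecular identifiers of 6 bases per barcode and gene. The deposited values are expected counts: estimated transcript counts corrected for identifiers drawn more than once, not normalized. Discarding reads with several loci lowers genes with near-identical copies. Symbols came from a name table (17966 of 23981 genes), and *sla2* was matched by the identifier the study gives for it (sla2b in the table). Each file lists 192 barcodes, of which 96 were used. The same 96 barcodes recur by design in 12 libraries, each sharing them with 11 others. Spike-ins (0.0033% of transcripts) were left out.

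A barcode needed 1500 transcripts, the minimum of the study, to count as a cell. No doublet caller was run, since wells received sorted single cells. For the test of sums, the transcripts of a library's cells were summed and rounded, and edgeR 4.0.16 (R 4.3.3, TMM, filterByExpr, quasi-likelihood test) was fitted to all 24 libraries. For the test of shares, the chance that a cell keeps at least 1 transcript after thinning to 1500 was averaged over the cells of a library, and libraries of 2 genotypes were compared by a two-sided exact permutation test (smallest possible p 0.00016). Thinned counts of cells and thinned sums come instead from 1 random draw of 1500 transcripts per cell. The p-values were adjusted by the Benjamini-Hochberg method over all genes tested in a comparison, with a threshold of 0.05. Both procedures were tested on simulated data. For shares, the simulated differences were larger than any difference of the members. That simulation therefore does not cover shares as sparse as theirs.

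Clusters (2000 variable genes without the members, 30 components, 15 neighbours, Leiden resolution 1; Python 3.11.15, scikit-learn 1.9.0, igraph 0.11.9, leidenalg 0.10.2, scipy 1.17.1, numpy 2.4.6, pandas 2.3.3) were named from marker lists where at least 3 markers and 40% of a matched list were found, 1.5 times as many as of the next list, no other list had more markers among the 10 leading genes, and at least 1 marker was among the 25 leading genes. This last requirement was set after the clusters and members had been seen. It left unnamed clusters 6 (6 fr105, 8 IT325 and 57 wild-type cells), 10 (11, 28 and 6) and 19 (0, 16 and 0). Cluster 5 (9, 40 and 29 cells) stayed unnamed since its 10 leading genes held a progenitor marker, *tal1*, and no erythroid one. The authors' own clusters were not used here, so a difference from the study may come from the rebuilt names.

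Named were the 9 members, list genes past a threshold, and the genes with the highest phi (5 for *trbc1*, 3 for other members found in at least 10 cells). The members and lists were chosen with earlier results of these data known. For 1 further gene of the same list and 1 gene of another list, values are not reported here. Genes named for cells with *trbc1* and for clusters were chosen after their values were seen. Alternatives were DESeq2 (version 1.42.0) and its size factors, no filter on genes, other depths and cell minimums, P1 or P2 libraries alone, replicate blocks, no kidney tubule-like cells, and leaving out each library. Sequences and genome coordinates were not used here.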

Additional observations from a re-analysis of the deposited data

Results flagged for a closer look

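Among members found in more than 1 library of a genotype, the highest library lay far from the other 7 in 4 cases. This was by Dixon's test at 95% over thinned shares of cells with a transcript. Chance alone meets it in about 1 of 20 groups of normally spread values, and these shares are sparse. Members found in 1 library alone were left out: in fr105 *il7r* (replicate 2, 2.67%), *sla2* (replicate 5, 0.735%) and *cd8b* (replicate 5, 0.323%), and in IT325 *cd4-1* (replicate 11, 0.418%). In wild-type replicate 5, *trbc1* was found in 15.3% of cells (next library 6.07%). In wild-type replicate 8, *cd8b* was found in 5.08% of cells (next 1.48%). In IT325 replicate 12, *il7r* was found in 3.78% of cells (next 1.46%), and in IT325 replicate 4, *sla2* was found in 7.06% (next 2.34%). Wild-type replicate 5 also held 6 of the 13 wild-type cells with *zap70*, 11 of the 24 with *sla2* and 7 of the 23 wild-type cells of cluster 17.

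The differences of the 2 *ikzf1* mutant genotypes from wild-type were compared by a direct test of fr105 against IT325. The share of cells differed by -7.16 percentage points for *trbc1* (exact permutation, adjusted p = 0.0344) and by -3.56 points for *tox* (exact permutation, adjusted p = 0.0316). Neither gene passed in either mutant against wild-type. The call was lost without any 1 of 6 fr105 libraries for *trbc1* and of 5 for *tox*. Genotype and lane cannot be told apart in this comparison.

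Barcodes under the minimum of 1500 transcripts were not used in any comparison. These 1296 barcodes, with medians of 240, 329 and 276 transcripts in fr105, IT325 and wild-type, held 19 transcripts of *trbc1*, 18 of *sla2*, 14 of *tox*, 14 of *runx3*, 4 of *cd4-1* and 4 of *cd8a*. *trbc1* was found in 2 of 464 fr105 barcodes (0.431%), 9 of 409 IT325 barcodes (2.2%) and 5 of 423 wild-type barcodes (1.18%). *cd4-1* was found in 2 fr105, 1 IT325 and 1 wild-type barcode.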

How the results depend on the processing

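Of 378 values of members under other settings in which some gene passed, 356 kept their direction and their side of the threshold, 17 lost a call, 3 gained one and 2 changed sign. The other 60 come from settings of the share test in which no gene passed, so only direction can be read, and 57 kept it. There *trbc1* differed between fr105 and IT325 by -7.11 (P1), -7.21 (P2) and -6.29 points (4 pairs) and *tox* by -2.7, -4.41 and -4.9, with no call possible. The 5 sign changes were *il7r* in IT325 against wild-type with IT325 P1 libraries against all wild-type libraries (0.26 points) or P1 libraries alone (0.836), *il7r* in fr105 against IT325 in 4 pairs (0.442) and in neutrophil-like cells (0.141), and *runx3* in IT325 against wild-type before thinning (0.264), and none was a call. Before thinning, *trbc1* passed in fr105 against wild-type (-6.44 points, exact permutation adjusted p = 0.0465). In fr105 against IT325 it lost its call with no gene filter (-7.16, adjusted p = 0.0568) and in neutrophil-like cells (-1.77), and *tox* lost its call before thinning (-6.59, adjusted p = 0.0801), in cells with at least 3000 transcripts (-3.64, 0.196), with no gene filter (-3.56, 0.0526) and in neutrophil-like cells (-0.913). Neutrophil-like cells alone were chosen after seeing the data.

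Counts of genes past the threshold in sums were 789 (fr105 against wild-type), 720 (IT325 against wild-type) and 945 (fr105 against IT325), and in the same order 1549, 1538 and 1580 without the filter, 211, 187 and 255 after thinning, and 231, 407 and 207 in P1 libraries. P2 libraries gave 354 and IT325 P1 libraries against all wild-type libraries 421 for IT325 against wild-type. In shares the counts were 513, 1130 and 707. In IT325 against wild-type the count was 2007 before thinning, 1807 higher and 200 lower in IT325 as against 591 and 539 after it, 510 in neutrophil-like cells, and 0 with IT325 P1 libraries against all wild-type libraries (exact permutation, 2194 with an unadjusted p under 0.05). In fr105 against wild-type it was 274 in cells with at least 3000 transcripts, 318 with no gene filter and 269 in neutrophil-like cells, and in fr105 against IT325 it was 461 with no gene filter and 237 in neutrophil-like cells. Shares in P1 or P2 libraries alone and in 4 pairs gave no count, since the smallest p was then 0.029 or 0.12.

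Same-numbered libraries did not deviate together (r between -0.148 and 0.111 over genes), so the numbers did not pair the samples. With the replicate block, the count in sums was 215 in fr105 against IT325 (edgeR, 4 pairs). In shares the block of 8 pairs gave 0 genes in fr105 against wild-type (exact sign-flip test, smallest p 0.0078, 2064 genes with an unadjusted p under 0.05).

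Leaving out 1 library at a time changed these results. By the exact permutation test of shares, *trbc1* in fr105 against wild-type was between -4.97 and -2.79 points and passed without wild-type replicate 7 (-4.97, adjusted p = 0.0368), and *tox* in IT325 against wild-type was between 2.22 and 3.41 and passed without IT325 replicate 12 (3.41, 0.0304). In fr105 against IT325, *trbc1* was between -8.25 and -6.12 and lost its call without any of 6 fr105 libraries, and *tox* was between -4.11 and -2.92 and lost it without any of 5. The count of shares past the threshold in fr105 against wild-type was between 327 and 509, with 327 without wild-type replicate 5 or 6.

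Depth limits the rarer members: 5 of the 9 were found in under 20 cells, so a call on them rests on few transcripts, and an absence in fr105 or IT325 is a limit on detection. The spread is between libraries, not fish.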
